A study of Mus musculus with 9 samples.

Results

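The guanylate-binding proteins (GBPs) are large GTPases of the dynamin superfamily. The 10 genes Gbp2, Gbp2b, Gbp3, Gbp4, Gbp5, Gbp6, Gbp7, Gbp8, Gbp9 and Gbp10 were taken by gene symbol, and each had 1 of the 18639 rows of every library. Bulk RNA sequencing had been done on tumour tissue from mouse brains 5 days after resection of CT2A tumours, a mouse glioma line. Of 3 groups with 3 libraries each, one had received sECM only, another GFP-TC, labelled as control cells, and the last ThTC, cells secreting interferon-beta (IFNβ) and GM-CSF. The series title calls the secreting cells CT2A cells and the tumour wild type, so all 3 groups carried the same tumour line. The labels give neither the age nor the strain of the mice and do not state that each library is a mouse of its own. The tests therefore weigh differences only against the spread among libraries, which may be technical. Libraries are named here by group and number. The 4 genes listed as glioma markers (Sox2, Olig2, Nes and Mki67) were above 0 in all 9 libraries and summed to 215 to 373 TPM. Values above 0 cannot show how much of a library was tumour, so this is no check of the tissue.

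GBPs are made by many cell types after exposure to interferon. Interferon-gamma, released by T and NK cells, is the classical inducer and acts at gamma-activated sequences (GAS) and through IRF1. Type I interferons such as IFNβ act at interferon-stimulated response elements (ISRE). Once made, GBPs bind GTP, assemble on membranes of pathogen-containing vacuoles and on bacteria, and promote inflammasome activation. Gbp2, Gbp2b (also called mouse Gbp1) and Gbp5 end in a prenylation motif that anchors them in membranes.

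In the mouse genome (GRCm38.p6, RefSeq positions counted from 1) the members form 2 clusters. On chromosome 3 lie Gbp5 (142496934 to 142522344), Gbp7 (142530336 to 142550151), Gbp3 (142560016 to 142573213), Gbp2b (142594816 to 142619179) and Gbp2 (142620663 to 142638008), all on the plus strand. The minus strand of chromosome 5 holds Gbp8 (105012513 to 105053609), Gbp9 (105076464 to 105110357), Gbp4 (105115767 to 105139586), Gbp10 (105215699 to 105239533) and Gbp6 (105270702 to 105295871). All 10 are annotated as protein coding.

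Promoter sequences are shown because interferon-activated factors are known to act at GBP promoters. The RefSeq promoter table (GRCm38.p6; 250 bases before to 50 after each transcript start) matched 5 of the 10 members, those on chromosome 3, with 6 entries since Gbp3 had 2 starts. Gbp4, Gbp6, Gbp8, Gbp9 and Gbp10 had no entry. The 4 shown belong to the 2 most abundant members (Gbp2 and Gbp3), to the member with the largest fold difference between group means (Gbp2b) and to one that holds both motifs (Gbp7). Each runs 5′ to 3′ on the plus strand, and capitals mark matches to the ISRE core (TTTC, any 2 bases, TTTC) or to the GAS motif TTCNNNGAA on either strand.
Gbp2, chr3:142620413-142620712: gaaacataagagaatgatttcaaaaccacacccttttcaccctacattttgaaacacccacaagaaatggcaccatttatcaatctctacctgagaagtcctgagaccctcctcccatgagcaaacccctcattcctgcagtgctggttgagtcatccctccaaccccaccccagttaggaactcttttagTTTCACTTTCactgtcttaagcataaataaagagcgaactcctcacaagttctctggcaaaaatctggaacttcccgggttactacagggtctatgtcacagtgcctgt
Gbp2b, chr3:142594597-142594896: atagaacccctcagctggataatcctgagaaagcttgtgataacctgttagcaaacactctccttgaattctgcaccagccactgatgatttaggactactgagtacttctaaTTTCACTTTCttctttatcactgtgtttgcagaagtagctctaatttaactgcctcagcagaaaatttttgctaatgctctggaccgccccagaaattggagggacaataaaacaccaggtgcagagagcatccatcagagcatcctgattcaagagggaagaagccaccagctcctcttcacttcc
Gbp3, chr3:142559794-142560093: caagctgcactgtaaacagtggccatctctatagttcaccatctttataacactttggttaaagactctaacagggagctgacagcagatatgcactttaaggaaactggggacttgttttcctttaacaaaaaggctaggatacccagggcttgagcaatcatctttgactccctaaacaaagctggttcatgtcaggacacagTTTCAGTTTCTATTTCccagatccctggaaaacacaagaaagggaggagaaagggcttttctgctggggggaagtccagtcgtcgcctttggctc
Gbp7, chr3:142530086-142530385: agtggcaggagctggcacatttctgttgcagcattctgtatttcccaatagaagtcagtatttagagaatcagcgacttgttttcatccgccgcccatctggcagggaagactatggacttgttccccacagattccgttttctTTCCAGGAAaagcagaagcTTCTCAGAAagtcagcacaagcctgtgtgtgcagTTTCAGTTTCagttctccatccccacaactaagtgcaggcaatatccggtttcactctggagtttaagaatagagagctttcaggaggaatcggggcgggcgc
The ISRE core was present in 5 of the 6 promoter entries and in all 5 genes, against 3.44% of the 32851 promoters in the table. Gbp2 and Gbp2b held the same 10 letters, TTTCACTTTC, starting 59 bases upstream of the transcript start in Gbp2 and 137 bases upstream in Gbp2b. In Gbp7 and Gbp3 the match was TTTCAGTTTC, 53 and 45 bases upstream, and Gbp3 held a second one, TTTCTATTTC, that overlapped the first by 4 bases. The Gbp5 promoter held TTTCAATTTC at 165 bases upstream, and the second start of Gbp3 held no match. GAS matches were found in 2 of the 6 entries, against 8.3% of all promoters. Gbp7 had them 106 and 87 bases upstream and Gbp5 at 245 and 52 bases upstream. Both motifs together occurred in Gbp5 and Gbp7 and in 0.45% of all promoters. A match of letters is not a measured binding site.

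**Figure D1:**
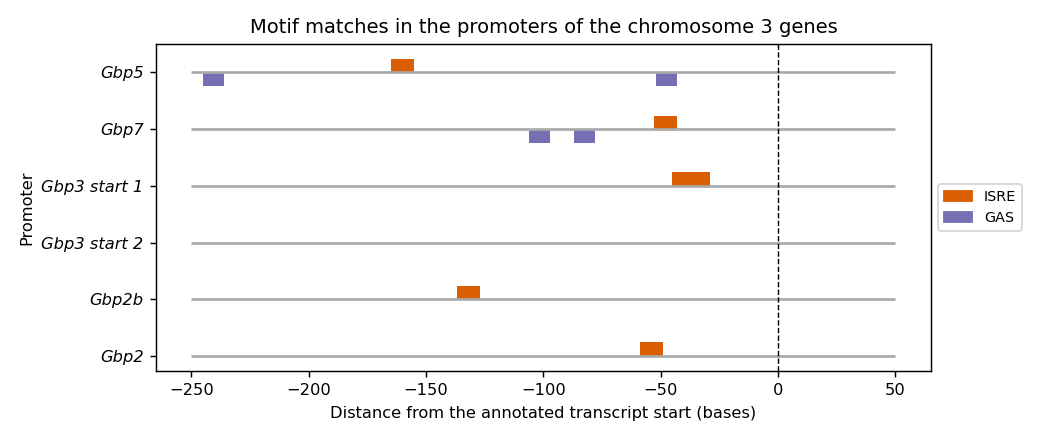
Matches to the ISRE core (orange) and GAS motif (purple) in the 6 promoter entries of the 5 chromosome 3 genes, by distance in bases from the annotated transcript start (dashed line). All 5 genes carry an ISRE match upstream of a start, and Gbp5 and Gbp7 carry 2 GAS matches each.

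Levels are given as TPM, a gene's share of all transcripts in a library after correction for gene length, so genes can be compared with each other. The members spanned a wide range, from 413 TPM for Gbp2 to 2.23 TPM for Gbp2b as means over the 9 libraries. Gbp2 was above Gbp3 in 9 of 9 libraries, Gbp3 (mean 227 TPM) above Gbp6 (105 TPM) in 9, and Gbp2b lowest in 9. In the middle the order was less clear. Gbp6 exceeded Gbp4 (91.4 TPM) in 8 of 9 libraries, Gbp4 exceeded Gbp7 (68.5 TPM) in 7, and Gbp7 exceeded Gbp9 (61.3 TPM) in 8. Gbp9 was above Gbp5 (44.6 TPM) and Gbp5 above Gbp10 (12.2 TPM) in 9 of 9, while Gbp10 exceeded Gbp8 (10.2 TPM) in only 5 of 9. The TPM ranges of neighbouring members overlapped throughout the order, because the libraries differed so much from each other.

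**Figure D2:**
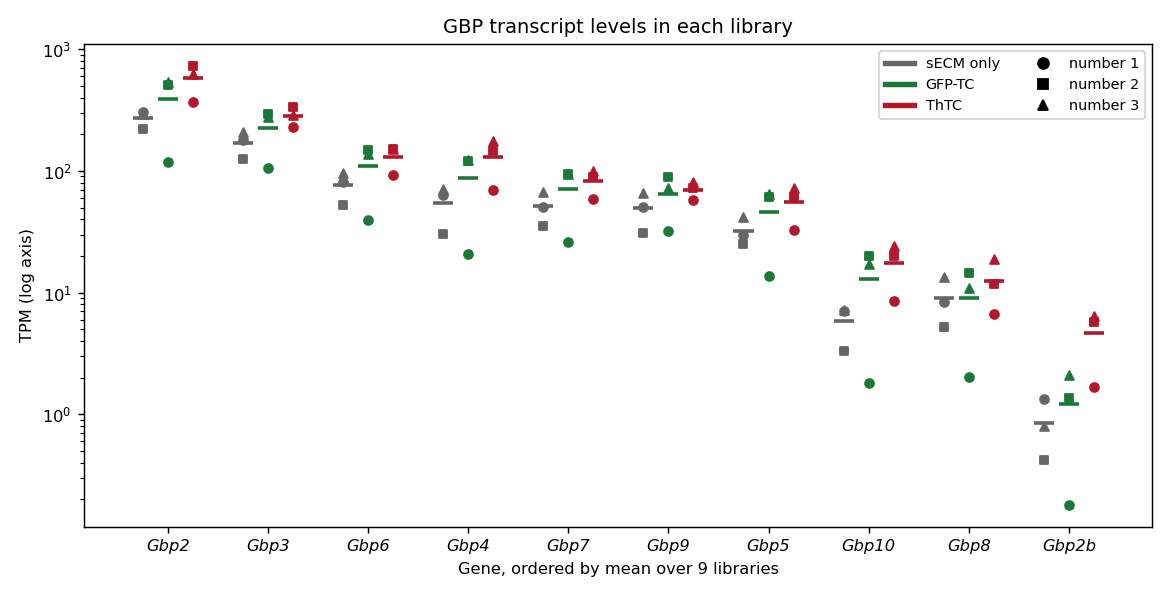
TPM (log axis) of the 10 GBP genes, ordered by mean level, in sECM only (grey), GFP-TC (green) and ThTC (red) libraries; symbols give the library number and lines the group mean of 3 libraries. For 9 of the 10 genes the lowest point is GFP-TC 1, and for 9 the highest is ThTC 2 or ThTC 3.

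Reads of some members could be shared between genes. In GENCODE M21 transcripts, 44.19% of the 100-base windows of Gbp6 also occurred in Gbp10, and 32.28% of those of Gbp10 occurred in Gbp6. The split of reads between this pair is therefore uncertain. For the other members 0 to 3.81% of windows were shared within the family, and for Gbp2, Gbp2b and Gbp5 the share was 0%. In windows of 50 bases the shares were larger, at 70.25% for Gbp6, 50.27% for Gbp10, 21.16% for Gbp8, 11.28% for Gbp4, 7.48% for Gbp9 and 3.83% or less for the others. No source used here gives the read length. Gbp8, Gbp9 and Gbp4 have overlapping gene models on the same strand in GENCODE (Gbp8 and Gbp9 by 61910 bases), though not in RefSeq, and the annotation used for counting was not given in the sources used here.

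Gbp2, the most abundant member and a GTPase that gathers on vacuoles and bacteria, made up the largest part of the family total in every library. It was at 306, 223 and 292 TPM in sECM only 1, 2 and 3. With GFP-TC it was at 119, 513 and 542 TPM, and with ThTC at 369, 729 and 627 TPM. All 3 ThTC libraries lay above all 3 sECM only libraries, whereas GFP-TC included the lowest value of the series and 2 values above ThTC 1. Group means (± SD, n = 3) were 274 ± 44.8 TPM for sECM only, 391 ± 236 TPM for GFP-TC and 575 ± 186 TPM for ThTC. Fitted differences, on the log2(TPM + 1) scale used for every fold change here, were 0.78 (standard error 0.54) for ThTC against GFP-TC and 1.02 (0.54) for ThTC against sECM only. Neither passed after adjustment over all tested genes (limma, adjusted p = 0.50 and 0.69).

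Gbp2b was the least abundant member and had the largest fitted log2 difference of the 10 members in both ThTC comparisons. Between GFP-TC and sECM only its difference was 0.18 (standard error 0.48), against 0.64 (0.75) for Gbp10. Its level was 1.33, 0.42 and 0.80 TPM in sECM only 1, 2 and 3, and 0.18, 1.35 and 2.12 TPM in GFP-TC 1, 2 and 3. ThTC libraries had 1.69, 5.70 and 6.47 TPM. All 3 lay above the sECM only libraries, and ThTC 1 fell between GFP-TC 2 and GFP-TC 3. The mean of 4.62 ± 2.57 TPM with ThTC was 3.80-fold that with GFP-TC (1.22 ± 0.98 TPM) and 5.44-fold that with sECM only (0.85 ± 0.46 TPM; SD, n = 3). The fitted log2 difference was 1.32 (standard error 0.48, 95% interval 0.22 to 2.42) against GFP-TC and 1.50 (0.48, 0.40 to 2.60) against sECM only. Both intervals lie above 0, but neither difference passed the adjustment (limma, unadjusted p = 0.024 and 0.013, adjusted p = 0.32 and 0.69). A lower pseudocount of 0.1 TPM gave log2 differences of 2.08 and 2.22, since values this low are compressed by adding 1, with adjusted p of 0.32 and 0.69.

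Gbp3 is another chromosome 3 member. With sECM only it was at 178, 125 and 209 TPM in libraries 1, 2 and 3, with GFP-TC at 106, 292 and 279 TPM and with ThTC at 229, 336 and 286 TPM. ThTC did not overlap sECM only, while GFP-TC 2 exceeded both ThTC 1 and ThTC 3. Gbp5, which is known to promote NLRP3 inflammasome assembly, had 29.5, 25.1 and 42.0 TPM with sECM only, 13.6, 61.0 and 64.0 TPM with GFP-TC and 32.8, 60.7 and 72.9 TPM with ThTC. ThTC 1 fell within the sECM only range here, so the groups overlapped. Gbp7, known for a part in vacuole and oxidative defence, had 50.9, 35.5 and 67.5 TPM with sECM only, 26.3, 93.6 and 95.01 TPM with GFP-TC and 59.2, 88.7 and 99.9 TPM with ThTC. Its highest GFP-TC libraries lay above ThTC 2.

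On chromosome 5, Gbp4 ran from 30.3 to 70.5 TPM with sECM only, 20.8 to 123 TPM with GFP-TC and 70.0 to 177 TPM with ThTC. The lowest ThTC library was just under the highest sECM only library. Gbp10 was at 7.04, 3.31 and 7.16 TPM with sECM only, 1.79, 19.95 and 17.3 TPM with GFP-TC and 8.59, 20.1 and 24.1 TPM with ThTC. All ThTC libraries lay above those with sECM only, with a 3.02-fold difference of means, but its sequence is shared with Gbp6 as described above. Gbp6 itself had group means of 76.4 ± 22.1, 109 ± 60.4 and 131 ± 33.5 TPM for sECM only, GFP-TC and ThTC (SD, n = 3) and overlapped in every comparison. Gbp9 ranged from 31.1 to 66.4, 32.1 to 89.4 and 57.3 to 80.9 TPM in the same order of groups, and was the one member with its highest value outside ThTC, in GFP-TC 2. Gbp8 ranged from 5.25 to 13.5, 2.03 to 14.4 and 6.70 to 19.0 TPM. It was the one member whose fitted difference between GFP-TC and sECM only was negative, at -0.20 (standard error 0.63).

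ThTC and GFP-TC libraries differ, by their labels, in the secretion of IFNβ and GM-CSF by the cells given. All 10 members had higher fitted means with ThTC, where 33.8% of the 13829 tested genes did, and the members' median log2 difference was 0.53 against -0.10 over all tested genes. limma called 0 of the 10 members at an adjusted p of 0.05 and 0% of all tested genes. At an unadjusted p under 0.05 it was 1 member, Gbp2b, where 2.03% of all genes were higher and 12.9% lower at that level. The groups overlapped for all 10 members, while 2.2% of tested genes lay wholly higher and 16.9% wholly lower with ThTC. The adjusted p ranged from 0.32 for Gbp2b to 0.83 for Gbp9, and the 95% intervals of the other 9 members included 0. Same-numbered GFP-TC and ThTC libraries deviated together, though weakly for number 2 (r = 0.12, below the 0.38 between ThTC 2 and GFP-TC 1), and the number was also fitted as a block. With the replicate block in the 6 libraries, 5 members had an unadjusted p under 0.05, all higher, where 5.81% of all tested genes were higher at that level. Again 0 members passed the adjustment, while 8 of the 13829 genes did (limma, smallest adjusted p of a member = 0.066, for Gbp2b).

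In the unpaired fit the direction in this comparison changed when GFP-TC 1 alone was left out. Within library number 1 all 10 members were higher with ThTC, by a median ratio of 2.75. Within number 2 it was 6 of 10 (median ratio 1.01), with Gbp5, Gbp7, Gbp8 and Gbp9 lower, and within number 3 all 10 (median ratio 1.15). The fit without GFP-TC 1 kept ThTC 1, its same-numbered library. The 10 members summed to 927 TPM in ThTC 1, against 1622 and 1544 TPM in ThTC 2 and 3. In GFP-TC 2 and 3 they summed to 1353 and 1343 TPM. No fit left out both number 1 libraries. Without GFP-TC 1 alone the median log2 fold change of the members was -0.14, against -0.21 for all tested genes, and 3 of 10 had higher means with ThTC. These were Gbp2 (0.07), Gbp4 (0.0086) and Gbp2b (0.92; limma, adjusted p = 0.28). GFP-TC 1 also had the lowest summed TPM of the markers of T cells, NK cells, monocytes and macrophages, microglia, dendritic cells, neurons and astrocytes. Its sum of 3 B cell markers was the highest of all libraries (5.97 TPM). Its sum of 3 red blood cell markers was 683 TPM, below only the 792 TPM of GFP-TC 2. The 5 T cell markers present in the files summed to 3.84 TPM in GFP-TC 1, against 46.2 and 51.8 TPM in GFP-TC 2 and 3 and 60.2 to 65.1 TPM with ThTC. For 6 monocyte and macrophage markers the sum was 570 TPM against 1030 and 1126 TPM, and 1126 to 2164 TPM with ThTC. The 5 NK cell markers summed to 15.5 TPM there, 56.8 and 63.5 TPM in GFP-TC 3 and 2, and 84.7 to 145 TPM with ThTC. These markers were above 0 in every library, and their part in the GBP levels was not tested. In bulk tissue, fewer cells of a type and less RNA per cell cannot be told apart.

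**Figure D3:**
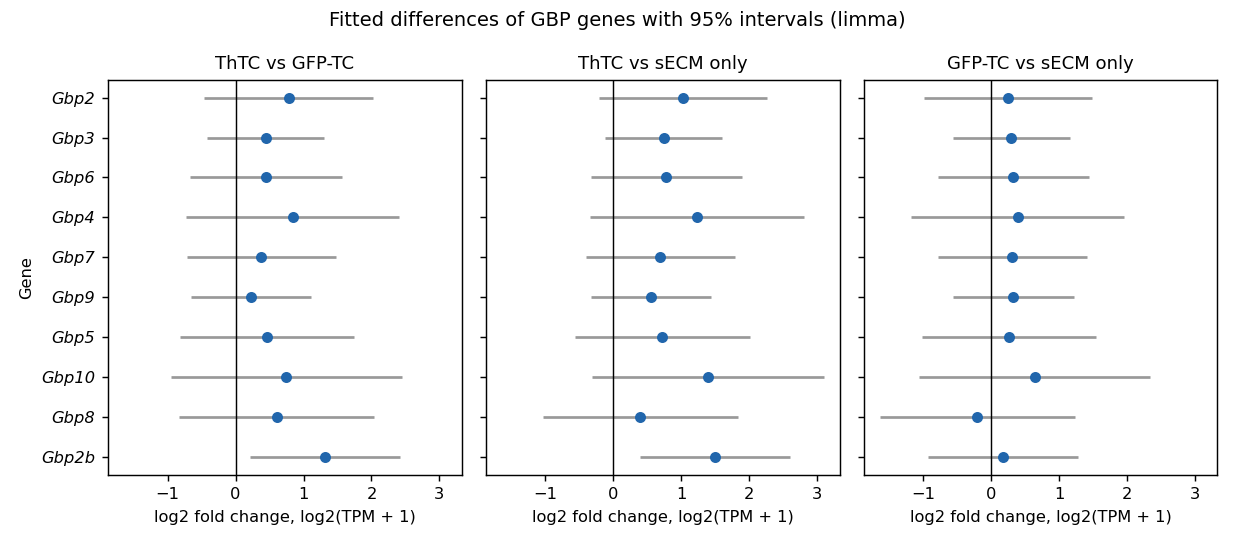
Fitted log2 fold changes on the log2(TPM + 1) scale (points) with 95% intervals (lines) from limma for the 10 GBP genes in the 3 comparisons, each with 3 libraries a group. Points lie above 0 for all 10 genes in both ThTC comparisons, and only the Gbp2b intervals exclude 0 there.

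ThTC against sECM only covers the whole treatment, cells and factors together, and uses the same ThTC libraries as the comparison above. All 10 members again had higher fitted means, as did 44.4% of all tested genes. The members' median log2 difference was 0.76, against -0.03 over all tested genes. Gbp2, Gbp2b, Gbp3 and Gbp10, 4 of 10, did not overlap between groups, against 5.03% of tested genes that lay wholly higher and 12.1% wholly lower with ThTC. limma called 0 members and 0% of all genes after adjustment, with adjusted p of 0.69 to 0.88, and 1 member, Gbp2b, at an unadjusted p under 0.05 (1.54% of all genes were higher and 5.36% lower at that level). The Gbp3 log2 difference was 0.74 (standard error 0.38), that of Gbp4 1.23 (0.69) and that of Gbp10 1.39 (0.75). The median over members stayed positive with any one library left out, between 0.55 without sECM only 2 and 1.03 without ThTC 1. Leaving GFP-TC 1 out of the shared estimate of spread, which does not touch the fold changes, gave 8 members higher at an unadjusted p under 0.05, where 4.03% of all tested genes were, and 0 after adjustment (limma, smallest adjusted p = 0.47). With only the 6 libraries of these groups in the fit it was 7 members against 3.66% of all genes, and with a replicate block in them 8 against 3.01%, again with 0 members passing the adjustment. The sum of the 5 T cell markers was 13.6 to 61.5 TPM with sECM only, and its highest value, in sECM only 1, was within the range of ThTC. NK cell markers summed to 39.9 to 77.9 TPM with sECM only, below every ThTC library. The sum of the monocyte and macrophage markers was also wholly lower with sECM only (774 to 1019 TPM) than with ThTC. The sum of the 4 glioma markers was wholly higher than with ThTC (274 to 327 TPM, against 215 to 252 TPM, and 253 to 373 TPM with GFP-TC). Gene by gene, 3 of 5 NK cell and 3 of 6 monocyte and macrophage markers lay wholly higher with ThTC. Of the 4 glioma markers 2, Sox2 and Nes, lay wholly lower with ThTC. Olig2 averaged 13.7 TPM with ThTC against 6.17 TPM with sECM only, but the groups overlapped. It was at 4.23, 8.78 and 28.1 TPM in ThTC 1, 2 and 3, and at 8.03, 5.21 and 5.26 TPM in sECM only 1, 2 and 3. The part of these markers in the GBP difference was not tested. The summed TPM of the 10 members in sECM only 1 was 776, below the 927 to 1622 of the ThTC libraries.

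GFP-TC against sECM only compares tumours given control cells with tumours given none, and shares its libraries with both other comparisons. Fitted means were higher with GFP-TC for 9 of 10 members, where 71.8% of all tested genes were higher, and the members' median log2 difference was 0.30 against 0.08 over all genes. The groups overlapped for all 10 members, while 3.15% of tested genes lay wholly higher and 1.08% wholly lower with GFP-TC. limma called 0 members and 0% of all genes (adjusted p = 0.997 for each member). At an unadjusted p under 0.05 there were again 0 members, against 0.499% of all genes higher and 0.434% lower. The median depended on single libraries. Without GFP-TC 1 the median was 0.93, all 10 members were higher and 8 had an unadjusted p under 0.05, where 7.06% of all tested genes were higher at that level, with a smallest adjusted p of 0.50 (limma). Without GFP-TC 2 or GFP-TC 3 it was 0.0062 or -0.01, with 5 of 10 members higher, and without sECM only 2 it was 0.08. The summed TPM of the 10 members was 362 in GFP-TC 1 and 1353 and 1343 in GFP-TC 2 and 3, a wider spread than in sECM only (532 to 865).

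The members varied together from library to library. Pearson correlations of log2(TPM + 1) between pairs of members over the 9 libraries ranged from 0.71 to 0.99, with a median of 0.95. These describe the libraries, which share treatment groups and tissue makeup. Gbp6 and Gbp7, on different chromosomes, were the most alike pair (r = 0.99), and Gbp2b was the member least like 8 of the other 9. Ordered by the family profile, the mean centred log2 level of the 10 members, the libraries ran from GFP-TC 1 (-1.40) and sECM only 2 (-0.88) over sECM only 1, ThTC 1 and sECM only 3 to GFP-TC 3 (0.50), GFP-TC 2 (0.55), ThTC 2 (0.74) and ThTC 3 (0.88). ThTC 1 therefore stood nearer to the sECM only libraries than to the other ThTC libraries. ThTC 3 and GFP-TC 3 were also the libraries richest in neuron markers, whose 5 genes summed to 985 and 841 TPM there and to 57.8 to 237 TPM in the others. ThTC 2 and GFP-TC 2 had GBP profiles in the same range with neuron marker sums of 183 and 228 TPM. The part of brain tissue content in the GBP levels was not tested.

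**Figure D4:**
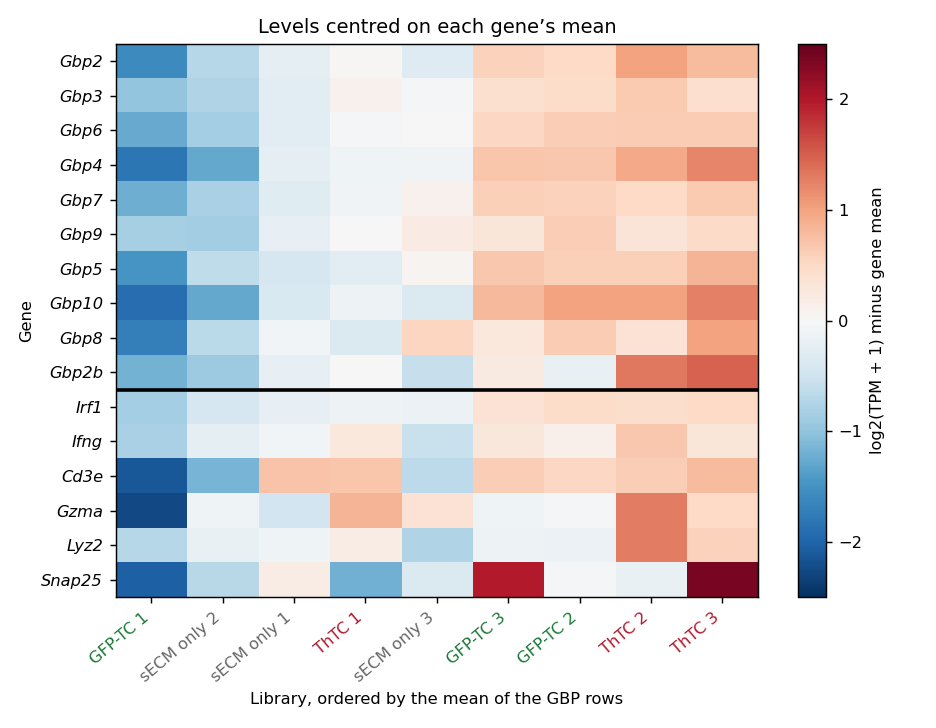
Levels of the 10 GBP genes (above the line) and of Irf1, Ifng, the T cell gene Cd3e, the cytotoxic granule gene Gzma, the macrophage gene Lyz2 and the neuron gene Snap25 (below), as log2(TPM + 1) minus each gene's mean, in 9 libraries ordered by the GBP mean. GFP-TC 1 is low throughout, and Irf1 follows the GBP order more closely than Cd3e or Snap25.

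Outside the family, of 10962 candidates with a mean of 5 TPM or more, the genes most like the GBP profile over the 9 libraries included Gsdmd, Irgm2, Igtp, Iigp1, Tapbp, Trafd1, Cd274, Il12rb1 and Vwa5a (r = 0.98 to 0.99). Irf1 followed at rank 12 (r = 0.98). Ifng, the gene of interferon-gamma, had r = 0.82, Cd3e 0.85, Lyz2 0.65 and Snap25 0.75. Ifng was at 3.22, 2.76 and 2.03 TPM in sECM only 1, 2 and 3, at 1.55, 3.89 and 4.44 TPM in GFP-TC 1, 2 and 3, and at 4.37, 6.14 and 4.50 TPM in the ThTC libraries. All ThTC libraries lay above sECM only and ThTC 1 lay just below GFP-TC 3. The log2 difference was 0.71 (standard error 0.30) against sECM only and 0.55 (0.30) against GFP-TC, and neither passed (limma, adjusted p = 0.69 and 0.40). Ifnb1, the gene of IFNβ itself, lay between 0 and 0.33 TPM in all libraries. No source used here says whether this row would count the IFNβ transcripts of the cells given, so it does not measure their secretion.

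The wider pathway was described with a list of 51 genes of GBP induction and function, of which 46 could be tested. In none of the 3 comparisons did limma call a member of this list after adjustment. With ThTC 38 had higher means than with GFP-TC (median log2 fold change 0.30), and 43 after median-of-ratios scaling. Against sECM only 41 were higher with ThTC (median 0.50). Of all tested genes 33.8% and 44.4% had higher means in these 2 comparisons. At an unadjusted p under 0.05 (limma) 3 and 4 list genes were higher, as were 2.03% and 1.54% of all tested genes. The immunity-related GTPases (IRGs), partners of GBPs at vacuoles, were higher in 7 of 7 genes in both, with medians of 0.70 and 0.995, and all 7 lay wholly above sECM only, as did 5.03% of all tested genes. The difference from GFP-TC was smaller here too in the unpaired fit that left out GFP-TC 1 and kept ThTC 1. In that fit 24 of the 46 list genes had higher means with ThTC (median log2 fold change 0.01) and 5 of the 7 IRGs (median 0.15), with Irgm1 at -0.09 and Irgm2 at -0.04. The median of the whole list against sECM only does not use GFP-TC 1 and stayed at 0.50. Irf1, an interferon-induced transcription factor, averaged 156, 199 and 228 TPM in sECM only, GFP-TC and ThTC, with adjusted p of 0.73 and 0.70 for ThTC against GFP-TC and sECM only (limma). With GFP-TC 1 left out and ThTC 1 (169 TPM) kept, its log2 difference between ThTC and GFP-TC was -0.15. Irf1 was at 253 and 262 TPM in ThTC 2 and 3 and at 255 and 241 TPM in GFP-TC 2 and 3.

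Psmb9, Psmb8 and Pycard had the smallest p of the list in both ThTC comparisons. Of the 8 inflammasome and pyroptosis genes in the list, only Pycard had an unadjusted p under 0.05 there (limma). Psmb9 and Psmb8, immunoproteasome subunits, were at 378 and 507 TPM on average with ThTC against 231 and 335 TPM with GFP-TC. They were the only 2 of the 46 tested list genes that did not overlap between these groups. Of all tested genes, 2.2% lay wholly higher and 16.9% wholly lower with ThTC. Pycard, the inflammasome adaptor, was at 20.1 against 10.7 TPM. Cxcl9, a chemokine induced by interferon-gamma, was at 104 against 52.5 TPM, and Gabarapl2, an autophagy protein of the machinery that loads GBPs onto vacuoles, at 153 against 125 TPM. limma gave adjusted p of 0.32 for Psmb9, Psmb8 and Pycard, 0.34 for Gabarapl2 and 0.36 for Cxcl9. The log2 difference of Cxcl9 fell from 1.28 to 0.52 in the unpaired fit that left out GFP-TC 1 and kept ThTC 1. Psmb9, Psmb8, Pycard and Gabarapl2 were at 0.56, 0.40, 0.64 and 0.34 in that fit. Against sECM only the 5 smallest unadjusted p were those of Psmb9, Psmb8, Pycard, Ifng and Cxcl9, each with an adjusted p of 0.69, a value that many genes of the list shared (limma). With GFP-TC 37 of the 46 had higher means than with sECM only (median log2 fold change 0.13), and 30 of the 46 after median-of-ratios scaling. Without that scaling 71.8% of all tested genes were higher with GFP-TC, with a median of 0.08. In that comparison the 5 smallest unadjusted p were those of Atg3, Atg16l1, Atg5, Atg7 and Il1b, at an adjusted p of 0.997 each (limma). The 6 autophagy genes as a group differed little, with medians of 0.04 in all 3 comparisons.

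Because the levels of the members were so closely correlated, their shares of the summed GBP level within each library were compared as well. A share does not depend on how a library is scaled. This measure was chosen after the levels had been seen. Gbp2 took 33.0% to 45.0% of the sum and Gbp3 18.6% to 29.4%. Gbp2b took 0.18%, 0.35% and 0.42% in ThTC 1, 2 and 3. It took 0.05%, 0.10% and 0.16% in GFP-TC 1, 2 and 3, and 0.17%, 0.08% and 0.09% in sECM only 1, 2 and 3. All 3 ThTC libraries lay above all 6 others, although ThTC 1 exceeded sECM only 1 by little. Mean shares (± SD, n = 3) were 0.114% ± 0.0499 for sECM only, 0.102% ± 0.0541 for GFP-TC and 0.318% ± 0.122 for ThTC. Exact two-sided permutation tests gave p = 0.1 for ThTC against either group, the smallest that 3 against 3 allows, and adjusted p = 0.5 over the 30 tests of 10 members in 3 comparisons. Relative to Gbp2 alone, Gbp2b was at 4.58, 7.82 and 10.3 TPM per 1000 TPM of Gbp2 with ThTC, and at 1.51 to 4.34 in the other 6 libraries.

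Some other members also differed in share without overlap between groups, by more percentage points but by smaller ratios than Gbp2b. Gbp7 took 5.47% to 6.47% with ThTC against 6.91% to 7.26% with GFP-TC and 6.56% to 7.80% with sECM only, without overlap. Gbp6 took 9.28% to 9.98% with ThTC and 10.3% to 11.0% with GFP-TC, also without overlap. Gbp10 took 0.93% to 1.56% with ThTC and 0.62% to 0.91% with sECM only. Each of these 4 differences had an exact permutation p = 0.1 and an adjusted p of 0.5. Since shares add up to 100%, a higher share of Gbp2 lowers those of the others. Gbp5 did not separate the groups, at 3.54% to 4.72% with ThTC, 3.77% to 4.77% with GFP-TC and 3.81% to 4.85% with sECM only.

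**Figure D5:**
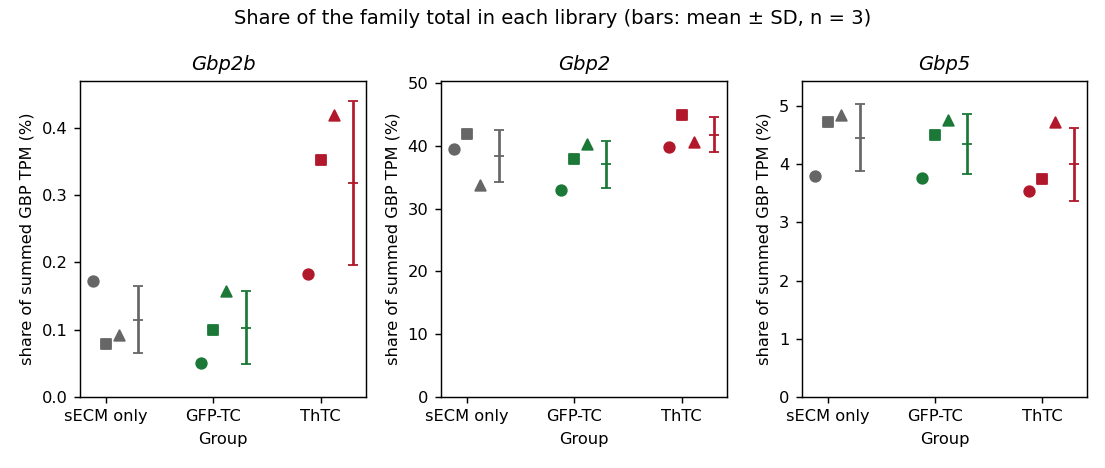
Share in percent of Gbp2b, Gbp2 and Gbp5 in the summed TPM of the 10 GBP genes, in each library (points, circle, square and triangle for numbers 1, 2 and 3) with the mean ± SD of each group of 3. The Gbp2b share of the ThTC libraries (0.18% to 0.42%) lies above the other 6 libraries (0.05% to 0.17%), while the shares of Gbp2 and Gbp5 overlap between groups.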

How the data were processed

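Total RNA of 9 tumour libraries was sequenced on a DNBseq instrument at 4.47 Gb of bases per sample, per the labels' protocols. The authors deposited 1 TPM value per gene and library, per the file headers. HISAT and the builds GRCm38.p6 and mm10 are named in the submitters' processing notes; no source used here gives the quantification tool or annotation. TPM is scaled to the same total in every library, so a rise of some genes lowers the rest, and the read depth and counting error behind a value are unknown.

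Groups came from the sample titles. Values were analysed as log2(TPM + 1), which understates changes of low genes. A gene was tested if 3 or more libraries reached 1 TPM, which left 13829 genes and all 10 members. The model was fitted with limma (version 3.58.1; R 4.3.3), with an intensity trend and all 9 libraries in one fit, and p-values were adjusted over all tested genes by the Benjamini-Hochberg method at 0.05. The steps were tested on simulated data. Members and lists were chosen with earlier results of these data known. Named are the 10 members, Ifng, Irf1, the 5 pathway genes with the smallest p per comparison and the 10 genes most like the family profile with an established symbol, of which 1 gene is not reported here; Ifnb1 and the marker genes Cd3e, Gzma, Lyz2 and Snap25 were added for context, and shares were chosen after the levels had been seen. Gbp11, Mx1, Mx2 and Cxcl11 of the list are not analysed here, and Ifnb1 did not pass the filter. Protein sequences were not used here. Plots used matplotlib 3.10.9 under Python 3.11.15.

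Deviations from group means over tested genes correlated at 0.74, 0.12 and 0.87 for the ThTC and GFP-TC libraries numbered 1, 2 and 3. Each value is above 0.1, the limit set for pairing. The value for number 2 is below the 0.38 between ThTC 2 and GFP-TC 1. The main fit was unpaired, and the number entered a fit only as the block among the alternatives. Its meaning is not given with the samples. The sECM only libraries did not pair with either group (-0.55 to 0.28). Alternatives were another pseudocount, other filters, 2 scalings, fits with 6 libraries, no trend, the block, and each library left out.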

Additional observations from a re-analysis of the deposited data

How the results depend on the processing

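No member and no gene of the pathway list was called in any comparison under any alternative run: a pseudocount of 0.1, no filter, a mean of 5 TPM or more (which drops Gbp2b), median-of-ratios or quantile scaling, 6 libraries only, no trend, the replicate block, and each library left out. Apart from leaving out libraries, all 354 refitted values kept their direction and side of the threshold. Of these settings, only the pseudocount and the scalings could change the fold change of a member. Under the others its direction was fixed in advance, while p-values could change. The counts of called genes in this total have no direction. Median-of-ratios scaling moved the median of all genes for ThTC against GFP-TC from -0.10 to 0.02 and that of the members from 0.53 to 0.67, and all 10 members stayed higher. With the replicate block in the 6 libraries the median over members for ThTC against GFP-TC was 0.53, necessarily as without it. With the block in all 9 libraries the smallest adjusted p (limma) was 0.37. The block changed no call of a member. The recounts of the pathway list under these settings were chosen after seeing the data.

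With single libraries left out, 348 of 369 values kept their direction and 21 reversed. This total overstates stability. Leaving out a library of the group not compared could not change a fold change, yet those values are included. So are counts of called genes, which stayed at 0 and have no direction. For ThTC against GFP-TC the median over members ran from -0.14 to 0.93, and the log2 fold changes that turned negative, each without GFP-TC 1, ran from -0.027 to 0.70 for Gbp3, -0.24 to 0.83 for Gbp5, -0.16 to 0.78 for Gbp6, -0.22 to 0.68 for Gbp7, -0.11 to 1.06 for Gbp8, -0.20 to 0.52 for Gbp9 and -0.19 to 1.27 for Gbp10. For GFP-TC against sECM only the median ran from -0.013 to 0.93. The ranges that crossed 0 were -0.13 to 0.96 for Gbp2, -0.12 to 0.58 for Gbp2b, -0.031 to 1.22 for Gbp4, -0.11 to 0.97 for Gbp5, -0.0039 to 0.94 for Gbp6 and -0.66 to 0.51 for Gbp8. In that comparison the difference in the Gbp2b share ran from -0.0396 to 0.0167 percentage points. For ThTC against GFP-TC and sECM only it stayed positive, also with Gbp2, or Gbp6 and Gbp10, left out of the total, alternatives chosen after seeing the data. The cause was not tested.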
